A study of Mus musculus with 48 samples.

Results

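Cyp2e1 encodes cytochrome P450 2E1, an enzyme of the endoplasmic reticulum that oxidises ethanol to acetaldehyde. It was followed here as 1 gene of the 15041 in the table, chosen by its symbol (Ensembl gene ENSMUSG00000025479), with its level read in each of 48 mouse livers. Bulk liver RNA came from C57BL/6 mice, wild type or with an SHP knockout label. SHP, the product of Nr0b2, is a nuclear receptor that acts as a repressor. Mice took a liquid diet for 10 days, either with 5% ethanol or with maltose as control, and at 9am on day 11 received a single dose. The dose was 5 g/kg of ethanol for the ethanol mice and 9 g/kg of maltose dextrin for the controls. Livers were collected at 6pm, midnight, 6am and noon, with 3 livers for each genotype label, treatment and time, and therefore 12 livers in each of 4 arms (wild-type control, wild-type ethanol, knockout-label control and knockout-label ethanol). All mice were dosed at the same hour, so clock time of collection and time since the dose cannot be told apart. Age and sex of the mice, the strain background of the knockout and the targeted part of Nr0b2 are not given in the sources used here.

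Genotype rests on the label alone. Nr0b2 was read in all 48 livers, with at least 62 reads in each, at 22.1 ± 9.6 FPKM (fragments per kilobase of transcript, scaled to library total; mean ± SD, n = 12) in wild-type controls and 21.9 ± 9.53 FPKM in knockout-label controls. Libraries held 9602539 to 19774062 reads in genes, of which 2.86% to 7% were mitochondrial. Hepatocyte markers summed to 40680 FPKM or more in every liver, so the labelled tissue was seen. 3 livers of the knockout-label ethanol arm stood apart. The midnight liver of replicate 0 carried RNA of pancreas marker genes, 5991 FPKM summed over Cela1, Cpa1 and Pnlip against at most 21.0 FPKM in the other 47 livers. The noon liver of replicate 1 and the 6pm liver of replicate 1 had the highest mean log2 level of acute phase genes of all livers, 10.74 and 10.59, and the wild-type control 6pm livers of replicates 0 and 2 followed with 10.02 and 9.61.

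In the liver CYP2E1 sits mainly in the hepatocytes around the central vein, takes its electrons from NADPH through cytochrome P450 reductase, and is known for the reactive oxygen species and the activated drug metabolites it yields. Ethanol and other small substrates are known to raise its amount largely by slowing the breakdown of the protein, while fasting and diabetes raise the enzyme through other routes as well. The values here are of the mRNA, and protein or activity was not measured. In such bulk samples fewer pericentral cells and less Cyp2e1 RNA per cell cannot be told apart.

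Cyp2e1 lies on chromosome 7 at chr7:140763739-140774987, plus strand (GRCm38, GENCODE M21). Its transcript Cyp2e1-201 has 9 exons and 1833 bases, close to the 1829 bases implied by the deposited values. No annotated gene overlaps it, so reads of an antisense gene do not enter its level. The nearest gene, Syce1, lies 2242 bases beyond its end on the other strand. Of the 1784 windows of read length (50 bases) in Cyp2e1-201, 86 also occur in transcripts of 211 other genes, and these lie between bases 1646 and 1821, near the 3′ end. The GENCODE start, at base 140763739, lies upstream of the RefSeq start, at base 140763819. The stretch just before the RefSeq start, from the RefSeq promoter table on GRCm38.p6, is shown because it holds the letters of a TATA box, a common element of core promoters. It lies after the GENCODE start, inside the Cyp2e1-201 model, so it is named a core promoter with respect to the RefSeq start only. Whether it acts as a promoter was not tested. Capitals mark the letters of the TATA box.

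Cyp2e1 core promoter, chr7:140763778-140763807, plus strand: aacgacacgtTATAAAatccttgtttctcc

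The marked letters, TATAAA, begin 31 bases before the RefSeq start. Both strands of the 32851 mouse windows of 300 bases (250 before and 50 after a RefSeq start) were searched, and 13.6% of them hold these letters. The letters of an E-box (CACGTG, in 7.15% of windows), a D-box (TTATGTAA, in 0.938%) and a nuclear receptor site (AGGTCA, in 16.3%) were not in the window of Cyp2e1 on either strand.

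Cyp2e1 was one of the most abundant mRNAs of these livers. It took 21316 to 161404 reads in a liver and ranked from 18 to 66 among all genes by FPKM. Over the 48 livers its level was 2362 ± 828 FPKM (SD) and ran from 716 to 4568 FPKM. By arm the mean was 2706 ± 549 FPKM in wild-type controls, 2502 ± 665 in wild-type ethanol livers, 1736 ± 617 in knockout-label controls and 2503 ± 1098 in knockout-label ethanol livers (SD, n = 12 each). The knockout-label controls stood lowest, and the knockout-label ethanol livers were spread most widely.

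In the knockout-label arm, ethanol livers held more Cyp2e1 mRNA than controls at 6am and noon. At noon the 3 knockout-label controls had 1995, 1185 and 1694 FPKM and the 3 ethanol livers 3671, 4568 and 3009 FPKM. At 6am the controls had 1378, 1042 and 1131 FPKM and the ethanol livers 2626, 2972 and 1708 FPKM. At both of these times every ethanol liver lay above every control. At 6pm the controls had 2391, 2144 and 3190 FPKM and the ethanol livers 2976, 2188 and 2885 FPKM, with overlapping ranges. At midnight the controls had 1668, 1421 and 1595 FPKM and the ethanol livers 1709, 1014 and 716 FPKM, of which the highest was the liver with pancreas RNA.

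Differences were tested by limma on log2(scaled FPKM + 0.5), where scaled means corrected for the composition of each library, with Benjamini-Hochberg adjustment over the 13765 genes tested. Errors after log2 values are standard errors. The ethanol difference in the knockout-label arm was 1.71 (0.26, adjusted p = 4.35e-05) at noon and 1.30 (0.26, adjusted p = 0.00177) at 6am, in comparisons where 22.4% and 8.3% of genes were called. The 6am call was lost when the fit held only the compared groups (adjusted p = 0.0693). It was 0.34 (adjusted p = 0.456) at 6pm, where 7.09% of genes were called, and -0.56 (adjusted p = 0.174) at midnight, where 9.24% were called. Without the liver that held pancreas RNA the midnight difference was -0.85 and passed the test (adjusted p = 0.0315). Averaged over the 4 times, Cyp2e1 rose by 0.70 (0.13, adjusted p = 0.000102), 1.62-fold, among 31.6% of genes called in either direction and 16.8% called higher. An exact two-sided permutation of livers within clock times, for Cyp2e1 alone, gave p = 0.0124. With library totals in place of the composition scaling the rise was 0.44 (adjusted p = 0.0031), under which the median of all genes shifted by -0.20. Without the 3 livers that stood apart it was 0.59 (adjusted p = 0.000711).

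The size of the ethanol difference depended on the clock time in the knockout-label arm. The 4 log2 differences spanned 2.27 (joint test, adjusted p = 0.000872), where 10.9% of genes were called. In the mean ethanol comparison of this arm 16.8% of genes were called higher and 14.8% lower. There 14 of 20 listed acute phase genes rose and 1 fell, and 3 of 4 hepatocyte markers in the table rose. Of 7 Kupffer cell markers 1 rose and 3 fell, of 5 stellate cell markers 1 rose and 3 fell, and of 6 lymphocyte markers 0 rose and 2 fell. Among the 4 neutrophil markers measured 2 rose, with summed levels of 1.98 to 173 FPKM in ethanol livers and 1.8 to 43.4 FPKM in controls. Their part in the Cyp2e1 result was not tested. The liver with the highest acute phase level at noon was the one with the highest Cyp2e1, 4568 FPKM, while the liver with the highest acute phase level at 6pm had the lowest Cyp2e1 of its group, 2188 FPKM. Without both livers the noon difference was 1.49 (adjusted p = 0.00108).

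**Figure D1:**
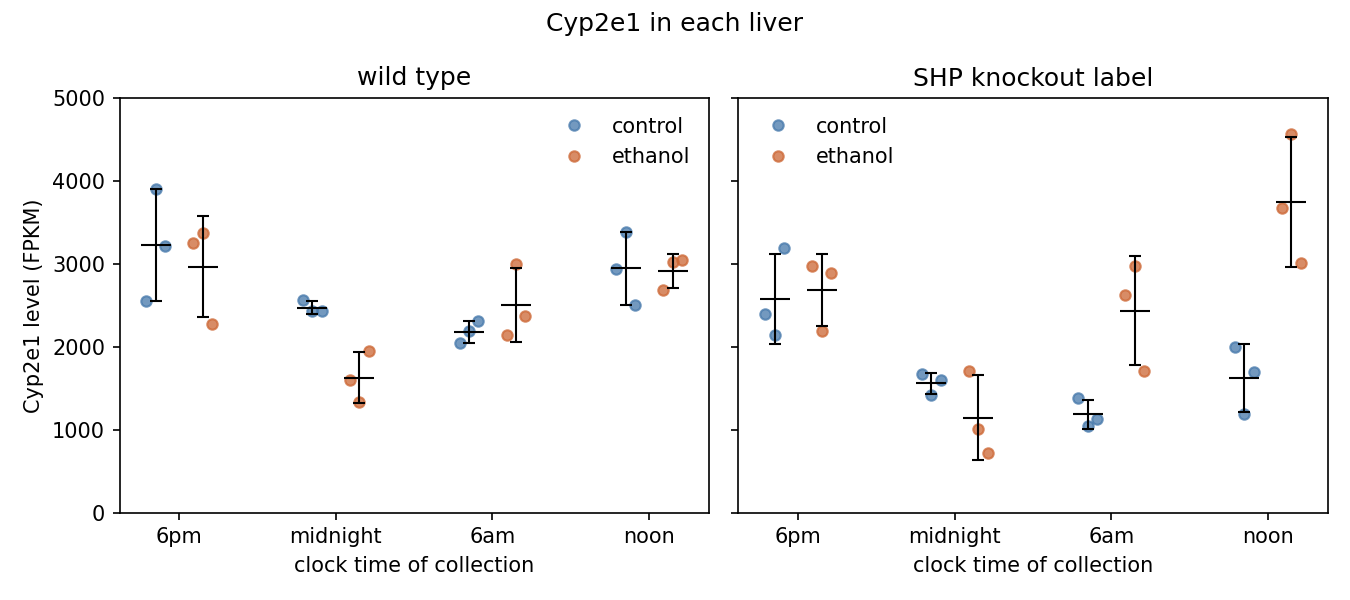
Cyp2e1 level in FPKM (vertical axis) in each of the 48 livers by clock time of collection (horizontal axis), wild type at left and SHP knockout label at right; points are livers, black bars the mean and SD of 3 livers. The knockout-label ethanol livers at noon lie between 3009 and 4568 FPKM and those at midnight between 716 and 1709 FPKM.

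Wild-type livers showed no called change of Cyp2e1 with ethanol. At noon the controls had 2941, 3382 and 2509 FPKM and the ethanol livers 2679, 3020 and 3043 FPKM. At 6am the controls had 2043, 2188 and 2307 FPKM and the ethanol livers 2138, 3004 and 2367 FPKM. At 6pm the controls had 2555, 3905 and 3218 FPKM and the ethanol livers 3248, 3377 and 2270 FPKM. The ranges overlapped at these 3 times. At midnight they did not: the controls had 2566, 2426 and 2428 FPKM, and the ethanol livers 1602, 1331 and 1947 FPKM.

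The mean difference with ethanol in wild type was -0.13 (0.13, adjusted p = 0.5, limma), in a comparison where 30.3% of genes were called. Its 95% interval ran from -0.39 to 0.14. The exact permutation gave p = 0.318. In this comparison 16.6% of genes were called higher and 13.7% lower. Of 7 Kupffer cell markers 1 rose and 5 fell, with summed levels of 50.7 to 426 FPKM in ethanol livers and 101 to 313 FPKM in controls. Their part in the result was not tested. By time the ethanol difference of Cyp2e1 was 0.30 at 6am, 0.12 at noon, -0.23 at 6pm and -0.70 at midnight (standard error 0.26 each), with 12%, 7.45%, 18.4% and 9.65% of genes called. The midnight difference missed the threshold (adjusted p = 0.0857, limma). The 4 differences spanned 0.99 (joint test, adjusted p = 0.19), where 10.6% of genes were called.

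The ethanol effects themselves differed between the genotype labels. The effect in the knockout-label arm exceeded that in wild type by 0.82 (0.18, adjusted p = 0.00474, limma), and 7.96% of genes were called in this comparison. The same number is the label difference in ethanol livers, -0.01, minus that in controls, -0.83. It shares the 12 knockout-label controls with the ethanol rise under that label and with the label difference in controls. These results are therefore not independent. By time the excess was 0.999 (0.37, adjusted p = 0.261) at 6am and 1.58 (0.37, adjusted p = 0.0276) at noon. It was 0.57 (adjusted p = 0.381) at 6pm and 0.14 (adjusted p = 0.942) at midnight, where it turned to -0.15 without the liver that held pancreas RNA. At single times few genes were called at all, 0.0509% at 6am, 1.72% at noon, 2.99% at 6pm and 0.247% at midnight. The noon call was lost when knockout-label control replicate 1, knockout-label ethanol replicate 1, wild-type control replicate 1 or wild-type ethanol replicate 0 of noon was left out, with adjusted p from 0.0654 to 0.0985. Whether the excess itself varied over the clock times was not shown (span 1.45, adjusted p = 0.3, with 0.174% of genes called).

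Control livers labelled knockout held less Cyp2e1 mRNA than wild-type controls. The values given above did not overlap between labels at 6am, noon and midnight, and overlapped at 6pm. The mean difference was -0.83 (0.13, adjusted p = 1.04e-05, limma), a level 0.561 times that of wild type, in a comparison where 32.4% of genes were called and 17% called lower. The exact permutation gave p = 3.75e-05. By time it was -0.99 (adjusted p = 0.028) at 6am, -1.04 (adjusted p = 0.00813) at noon, -0.48 (adjusted p = 0.274) at 6pm and -0.82 (adjusted p = 0.109) at midnight, where 2.59%, 13.1%, 5.83% and 1.57% of genes were called. The 6am call was lost in 5 of 6 fits that left out 1 liver (every 6am control except knockout-label replicate 0), with adjusted p from 0.0702 to 0.154. The noon call was lost without knockout-label replicate 1 (adjusted p = 0.0776). Of 7 Kupffer cell markers 6 were higher in the same comparison, with summed levels of 245 to 858 FPKM in knockout-label controls and 101 to 313 FPKM in wild-type controls, and 3 of 4 hepatocyte markers in the table were lower. The mitochondrial share of reads was 3.32% to 5.1% in knockout-label controls and 4.08% to 6.15% in wild-type controls. Their part in the result was not tested.

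In ethanol livers no difference between the labels was called. The mean difference was -0.01 (0.13, adjusted p = 0.963, limma; 95% interval -0.27 to 0.25), where 28.3% of genes were called, and the exact permutation gave p = 0.949. The ranges overlapped at all 4 times. At midnight the knockout-label ethanol livers differed from the wild-type ones by -0.68 (adjusted p = 0.0718), in a comparison with 13.6% of genes called, and by -0.97 (adjusted p = 0.0165) without the liver that held pancreas RNA. At noon the difference was 0.54 (adjusted p = 0.273), with 2.8% of genes called. The values at 6am and 6pm, 0.01 and 0.09, in comparisons with 4.42% and 25.1% of genes called, turned below 0 with library totals (-0.06 and -0.14).

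**Figure D2:**
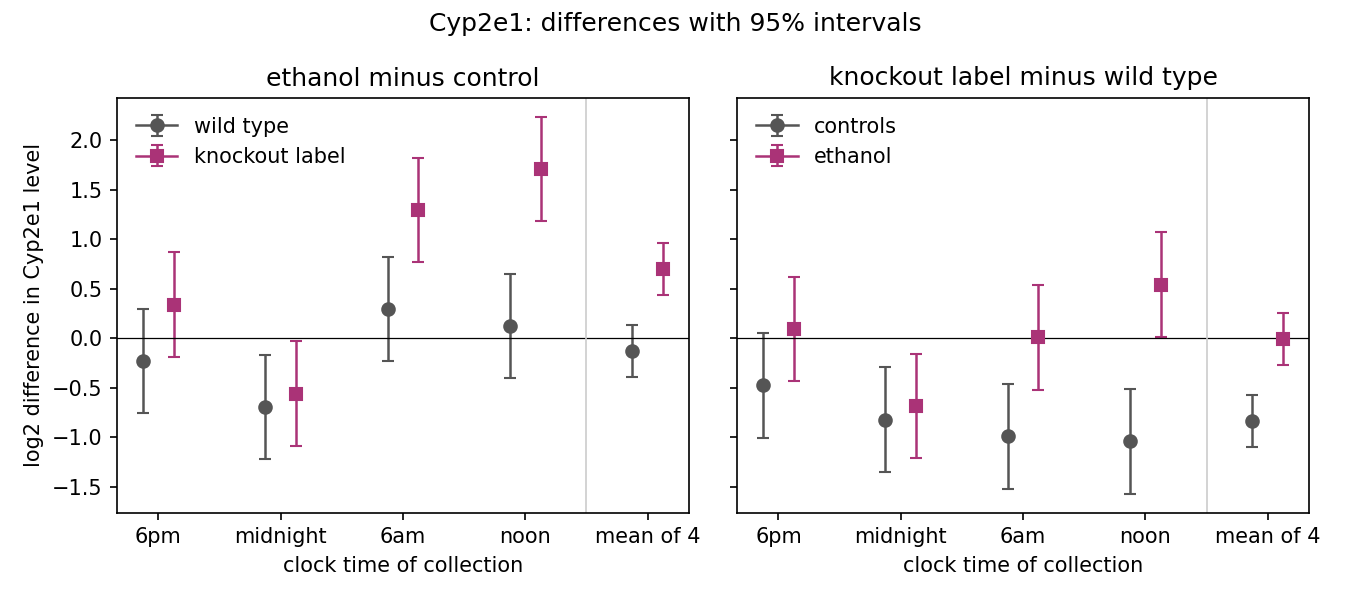
Log2 differences of Cyp2e1 with 95% intervals by clock time and as the mean of 4 times; at left ethanol minus control in each genotype label, at right knockout label minus wild type in each treatment. The knockout-label ethanol difference runs from -0.56 at midnight to 1.71 at noon, and all 4 label differences in controls lie below 0.

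Cyp2e1 varied over the clock times within arms, where time since the dose varied too. In knockout-label ethanol livers the group means ran from 1146 ± 510 FPKM at midnight to 3749 ± 782 FPKM at noon, a span of 2.13 on the log2 scale (joint test of 4 times, adjusted p = 3.49e-06, limma), where 38.2% of genes were called. In knockout-label controls the span was 1.26 (adjusted p = 0.00655; 12.7% of genes called), from 1183 ± 174 FPKM at 6am to 2575 ± 547 FPKM at 6pm. That call was lost without the 6pm control of replicate 2 (adjusted p = 0.0959), the liver with 3190 FPKM. In wild-type ethanol livers the span was 0.90 (adjusted p = 0.0281; 20.2% of genes called), with the lowest mean again at midnight, 1627 ± 309 FPKM. It was lost in 5 of 12 fits that left out 1 liver, with adjusted p up to 0.177 (6pm replicates 0 and 1, midnight replicates 0 and 1 and noon replicate 2). In wild-type controls the span of 0.74 was not called (adjusted p = 0.249; 8.34% of genes called). Midnight was the lowest time in both ethanol arms and 6am in both control arms.

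Ordered by mean level, the 16 groups ran from knockout-label ethanol at noon down to knockout-label ethanol at midnight, 3.27-fold apart, and single livers were 6.38-fold apart. After the first came wild-type control and ethanol at 6pm (3226 ± 675 and 2965 ± 606 FPKM), then wild-type control and ethanol at noon (2944 ± 437 and 2914 ± 204 FPKM). Knockout-label ethanol (2683 ± 431 FPKM) and control (2575 ± 547 FPKM) at 6pm followed. Next were wild-type ethanol at 6am (2503 ± 448 FPKM), wild-type control at midnight (2473 ± 80 FPKM), knockout-label ethanol at 6am (2436 ± 653 FPKM) and wild-type control at 6am (2179 ± 132 FPKM). The lower end held wild-type ethanol at midnight (1627 ± 309 FPKM), knockout-label control at noon (1625 ± 409 FPKM) and at midnight (1561 ± 126 FPKM), and knockout-label control at 6am (1183 ± 174 FPKM). Of the 15 neighbouring pairs 13 had overlapping livers. The 2 gaps lay below wild-type control at 6am and below knockout-label control at midnight. Within groups the SD of the log2 level was 0.317 for Cyp2e1 and 0.212 for the median gene.

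Among 25 listed hepatic P450 genes Cyp2e1 had the highest level per length in all 4 arms. The second by its mean over 48 livers, Cyp2c29, an enzyme of the Cyp2c family, had 377 ± 105 FPKM in wild-type controls and 2086 ± 791 FPKM in wild-type ethanol livers (SD, n = 12). Cyp2e1 was above Cyp2c29 in 44 of 48 livers, above Cyp3a11, a drug-metabolising P450, in 44, above the fatty acid hydroxylase Cyp4a14 in 47, and above the other 21 listed genes in all 48. Levels of the Cyp2c, Cyp3a and Cyp4a genes are uncertain where near-identical copies share reads.

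Cyp2e1 took a smaller share of P450 mRNA after ethanol in wild type, although its own level had no called change there (-0.13, adjusted p = 0.5, limma). Its level also had no called difference between labels in ethanol livers (-0.01, adjusted p = 0.963, limma). A share depends on the other Cyp genes as well, among them the families with near-identical copies. Its share of the summed FPKM of the 73 Cyp genes in the table was 31.6 ± 3.94% in wild-type controls and 20.03 ± 4.68% in wild-type ethanol livers (SD, n = 12). It was 24.6 ± 6.91% in knockout-label controls and 28.3 ± 8.42% in knockout-label ethanol livers. The share fell with ethanol at 4 of 4 times in wild type, to 0.621 of its control value (exact two-sided permutation within times, adjusted p = 5e-05 over 4 comparisons). In the knockout-label arm it was 1.14 times the control value and higher at 2 of 4 times (exact permutation, adjusted p = 0.169). Between labels it was 0.757 times the wild-type share in controls (exact permutation, adjusted p = 0.000224) and 1.39 times in ethanol livers (exact permutation, adjusted p = 0.0005).

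**Figure D3:**
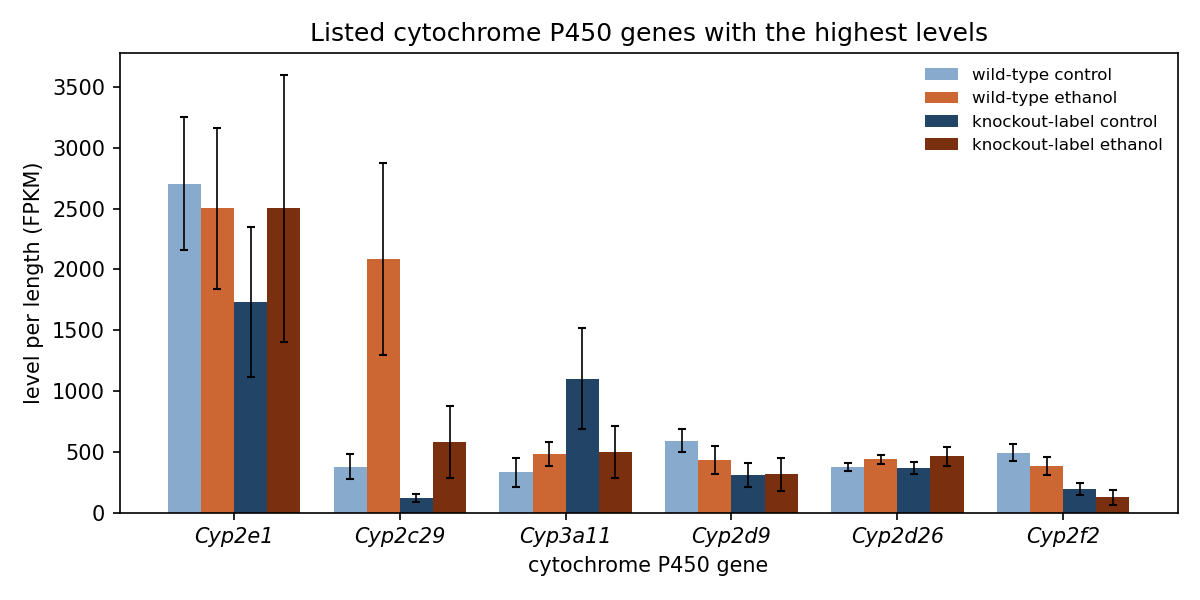
Mean level per length in FPKM (bars, SD as error bars, 12 livers each) of Cyp2e1 and the 5 other listed P450 genes with the highest mean over 48 livers, by arm. Cyp2e1 is the highest bar in each arm, and Cyp2c29 comes nearest to it in wild-type ethanol livers with 2086 FPKM.

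Other enzymes that carry ethanol to acetate and beyond moved in both directions. Of 13 listed genes 2 rose and 4 fell with ethanol in wild type (median log2 difference -0.06, all genes 0.01; 16.6% of genes called higher and 13.7% lower). In the knockout-label arm 1 rose and 4 fell (median -0.17, all genes 0.00; 16.8% called higher and 14.8% lower). Adh1, the main alcohol dehydrogenase of the liver, had 926 FPKM in wild-type controls and 1112 in wild-type ethanol livers, a difference of 0.25 (adjusted p = 0.0629, limma), and in the knockout-label arm 0.19 (adjusted p = 0.155). At noon alone both were called, 1.04 (adjusted p = 0.00139) and 0.57 (adjusted p = 0.0406). Adh1 was chosen for its role after its values were seen. Adh4, another alcohol dehydrogenase, fell by 0.73 (adjusted p = 0.00343) in wild type and by 0.59 (adjusted p = 0.0166) in the knockout-label arm. Catalase, Cat, the peroxisomal route, fell in wild type by 0.38 (adjusted p = 0.0159) and had -0.24 (adjusted p = 0.119) in the knockout-label arm.

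Among the aldehyde dehydrogenases, Aldh2, the mitochondrial enzyme that clears most acetaldehyde, had -0.06 (adjusted p = 0.624) in wild type and rose by 0.22 (adjusted p = 0.0263) in the knockout-label arm, a call that ended with library totals (-0.03). The cytosolic Aldh1a1 rose in wild type by 0.82 (adjusted p = 0.000163). The effects of Aldh1a7 and Aldh1b1 differed between labels in the direction opposite to Cyp2e1, by -0.79 (adjusted p = 0.00258) and -0.88 (adjusted p = 0.0129). Acss2, which activates acetate to acetyl-CoA, fell by 1.45 (adjusted p = 1.14e-05) in wild type and by 1.33 (adjusted p = 4.03e-05) in the knockout-label arm. In controls labelled knockout 1 of the 13 was higher and 3 were lower than in wild type (15.4% of genes called higher and 17% lower). The 3 lower calls, of Adh5, Adh7 and Cat, ended with library totals, under which 2 of the 13 were higher and 0 lower.

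Most listed genes for partners of microsomal P450 enzymes and for haem turnover rose with ethanol. Beside the partners the list holds the haem-breakdown genes Hmox1 and Hmox2 and the haem-synthesis gene Alas1. Hmox1 and Hmox2 were among those that rose in both arms, in the knockout-label arm as calls that library totals ended. In this and the following lists the shares of all genes to set beside the counts are 16.6% higher and 13.7% lower in wild type, and 16.8% and 14.8% in the knockout-label arm. For the label difference in controls they are 15.4% and 17%. With library totals, 542 of the 13765 genes tested were called higher with ethanol and 6759 lower in the knockout-label arm. In wild type these counts were 1906 and 1786, and for the label difference in controls 4135 and 812. Of 8 listed genes 5 rose and 2 fell in wild type (median 0.51) and 5 rose and 2 fell in the knockout-label arm (median 0.37). With library totals 2 rose and 2 fell in the knockout-label arm. Por, the reductase that feeds CYP2E1, went from 51 to 138 FPKM in wild type, a rise of 1.48 (adjusted p = 7.68e-08, limma), and from 90.2 to 133 FPKM in the knockout-label arm, a rise of 0.95 (adjusted p = 0.0001). Cytochrome b5, Cyb5a, which assists some P450 reactions, rose by 0.86 and 0.68 (adjusted p = 9.95e-11 and 3.75e-08). Its reductase Cyb5r3 fell by 0.81 and by 0.55 (adjusted p = 8.4e-09 and 1.05e-05). Pgrmc1, a haem-binding partner of P450 enzymes, rose by 0.42 and 0.34 (adjusted p = 3.78e-05 and 0.000451), the second a call that library totals ended. None of the 8 had an effect called different between labels, the largest being -0.53 for Por (adjusted p = 0.2).

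**Figure D4:**
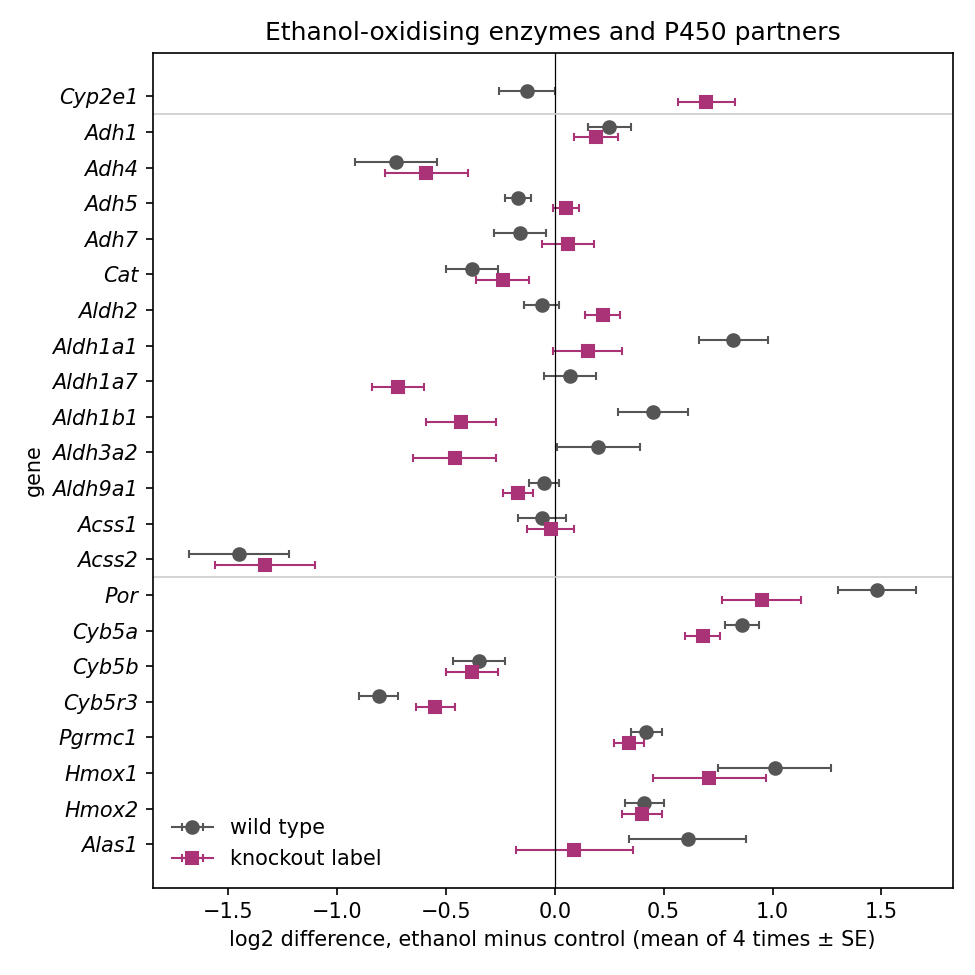
Log2 difference between ethanol and control livers (mean of 4 times, error bars SE) of Cyp2e1, of 13 genes of ethanol and acetaldehyde oxidation and of 8 genes for partners of P450 enzymes or haem turnover, circles for wild type and squares for the knockout label. Cyp2e1 lies at -0.13 and 0.70, while Acss2 lies below -1 and Por near or above 1 under both labels.

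Of 13 transcription factors known to act at Cyp2e1 or in its zone, 1 rose and 2 fell with ethanol in wild type (median 0.02) and 4 rose and 1 fell in the knockout-label arm (median 0.02). With library totals the knockout-label counts were 1 and 5. Nr1i3, the xenobiotic receptor CAR, rose by 0.77 (adjusted p = 2.91e-06, limma) and by 1.10 (adjusted p = 1.52e-08). Hnf4a and Cebpb, liver-enriched factors, rose in the knockout-label arm by 0.38 and 0.69 (adjusted p = 0.00093 and 0.00716), calls that library totals ended (0.13 and 0.44). Between control livers 1 factor was higher and 4 were lower under the knockout label, and 2 and 2 with library totals. The lower ones in both included Nr1i3 at -0.49 (adjusted p = 0.00126) and Hlf, a clock output factor, at -0.40 (adjusted p = 0.00193).

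Other genes of the pericentral zone, where Cyp2e1 is known to be expressed, moved in both directions. Of 16 listed genes 8 rose and 3 fell with ethanol in wild type (median 0.25) and 5 rose and 3 fell in the knockout-label arm (median 0.24), and with library totals 6 and 3 in wild type and 3 and 4 in the knockout-label arm. Cyp2c37, a P450, rose by 2.06 (adjusted p = 2.19e-08, limma) and 2.40 (adjusted p = 4.12e-09), and the ammonium transporter Rhbg by 1.41 (adjusted p = 6.98e-09) and 1.18 (adjusted p = 3.38e-07). Rgn, a calcium-binding protein, fell by 1.26 in wild type (adjusted p = 2.21e-07). Glul, the glutamine synthetase that marks the innermost ring of hepatocytes, had -0.20 (adjusted p = 0.079, limma) in wild type. It rose by 0.23 (adjusted p = 0.0388) in the knockout-label arm, a call that ended with library totals (-0.02, adjusted p = 0.862). The difference of the 2 effects on Glul was 0.44 (adjusted p = 0.0244), a call that also ended with library totals (0.20, adjusted p = 0.235). Cyp1a2, another pericentral P450, rose in wild type by 1.36 (adjusted p = 2.91e-06), and its effect was lower in the knockout-label arm, with a difference of -1.11 (adjusted p = 0.0128). In control livers 1 of the 16 was higher and 4 were lower under the knockout label (15.4% and 17% of all genes), and 3 and 2 with library totals, where Rgn and Cyp27a1 were no longer called. The lower ones in both included Cyp2c37 at -0.93 (adjusted p = 0.00247).

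Of 14 periportal genes, the opposite zone, 2 rose and 1 fell in wild type (median 0.12). In the knockout-label arm 0 rose and 2 fell (median 0.00), and 6 fell there with library totals. The lipid droplet enzyme Hsd17b13 rose by 0.52 in wild type (adjusted p = 0.000997, limma). Under the knockout label, control livers had 2 of them higher and 4 lower, with the P450 gene Cyp2f2 at -1.54 (adjusted p = 9.85e-08) and the urea cycle enzyme Arg1 at -0.78 (adjusted p = 0.000359). Genes lower under that label included members of both zones. Among 13 genes of fasting and ketone body synthesis, states known to raise CYP2E1, 4 rose and 0 fell in wild type (median 0.13), and 4 rose and 2 fell in the knockout-label arm (median 0.17). With library totals 0 rose and 3 fell in the latter. Angptl4, a secreted inhibitor of lipoprotein lipase, rose by 0.78 (adjusted p = 0.0226, limma) in wild type. It rose by 0.83 (adjusted p = 0.015) in the knockout-label arm, a call lost with library totals (0.58, adjusted p = 0.0558). Pdk4, a kinase that restrains pyruvate oxidation, had -0.52 (adjusted p = 0.0695, limma) in wild type and fell by 0.9 (adjusted p = 0.00175) in the knockout-label arm.

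Acute phase genes, most of them for secreted proteins of the liver's response to inflammation, rose in larger number in the knockout-label arm. Of 20 listed genes 2 rose and 4 fell with ethanol in wild type (median -0.01), and 14 rose and 1 fell in the knockout-label arm (median 1.25). Without the 3 livers that stood apart 12 rose and 1 fell (median 0.79), and with library totals 11 rose and 1 fell. The effects of 9 of the 20 were called higher in the knockout-label arm (3.69% of genes called higher and 4.27% lower), and 6 were without those livers. Wild-type controls also held livers with a high acute phase level, 10.02 and 9.61 at 6pm and 8.79 at midnight (mean log2) against at most 7.88 in wild-type ethanol livers, and their part in these differences was not tested. Orm3, a secreted orosomucoid with near-identical copies that may share reads, had the smallest adjusted p in both arms and rose in wild type by 2.99 (adjusted p = 8.28e-06, limma) and under the knockout label by 3.34 (adjusted p = 1.73e-06), effects that were not called different (0.36, adjusted p = 0.806). Lbp, which binds bacterial lipopolysaccharide, went from 15.04 ± 3.22 to 38.0 ± 17.7 FPKM (SD, n = 12) in that arm, a rise of 1.45 (adjusted p = 6.33e-06, limma). Itih4, a plasma protein, rose by 1.5 there (adjusted p = 2.86e-05), an effect above that in wild type by 1.38 (adjusted p = 0.0147). Of 9 chaperones and ubiquitin ligases that act on P450 proteins 7 rose and 0 fell in wild type (median 0.37) and 3 rose and 0 fell in the knockout-label arm (median 0.16; with library totals 0 rose and 3 fell). Stub1, a ubiquitin ligase known to mark CYP2E1 for breakdown, rose by 0.37 (adjusted p = 2.25e-06) in wild type and by 0.36 (adjusted p = 3.08e-06) in the knockout-label arm, the second a call lost with library totals (adjusted p = 0.121). The effect of ethanol on the chaperone Hsp90aa1 was lower in the knockout-label arm, with a difference of -0.91 (adjusted p = 0.000617).

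The levels of some genes followed those of Cyp2e1 closely over the 48 livers. Likeness was Pearson's r of log2 levels over 48 livers, compared for 3795 genes with a mean of at least 10 FPKM, whose median r was 0.246, and it is given as a description, since the livers share arms, clock times and library scaling. Upb1, an enzyme of pyrimidine breakdown, came first with r = 0.879 (0.909 over the 16 group means and 0.734 within groups). Then came 1110032A03Rik (0.861), 1190003J15Rik (0.85), the lysine-breakdown enzyme Gcdh (0.843), the fatty acid isomerase Eci2 (0.832), the fatty acid activator Slc27a2 (0.829), the mitochondrial Hint2 (0.827) and Acsm3 (0.826). Of the 3795 genes 179 had r of at least 0.7. At the other end stood Prrc2a (-0.704), Sept9 (-0.649) and Ap2a2 (-0.632).

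1190003J15Rik (ENSMUSG00000025481), now named Urah, an enzyme of the uric acid pathway in mice, lies 60031 bases beyond Cyp2e1 on the same strand, at chr7:140835018-140837966 (GRCm38). It had 113 FPKM on average. Its level differed by -0.38 between control livers of the 2 labels. With ethanol it differed by -0.27 in wild type and 0.17 in the knockout-label arm. The values of Upb1 were -0.39, -0.01 and 0.26 in the same order. Both genes were chosen for their likeness to Cyp2e1 over these livers, so these differences are given as a description, with no test.

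**Figure D5:**
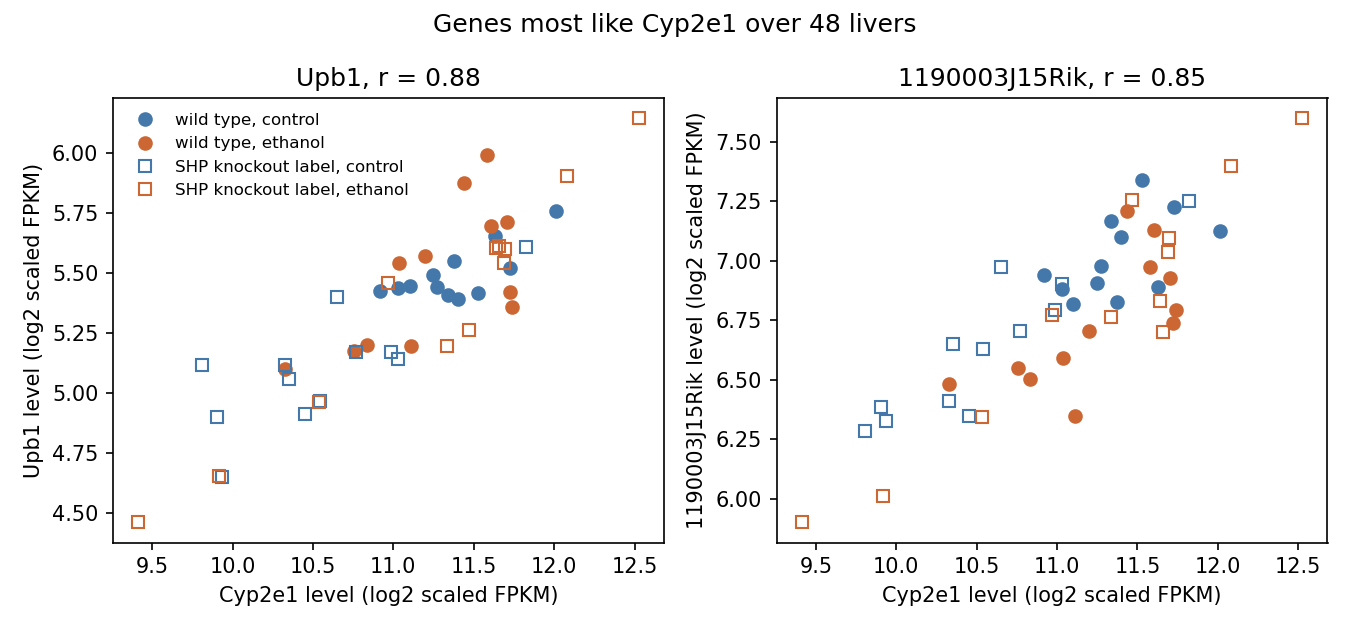
Log2 level of Upb1 (left) and 1190003J15Rik (right) against that of Cyp2e1 in the 48 livers, with filled circles for wild type, open squares for the knockout label, blue for control and orange for ethanol. Points run from the lower left to the upper right, with r of 0.879 and 0.85 over the 48 livers.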

How the data were processed

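The deposited values were FPKM of 15041 genes in 48 livers, computed by the authors per the file headers. Novoalign, an aligner, and the mouse build GRCm38 are named, with no role stated, in the submitters' processing notes. Versions and the annotation are not given in the sources used here. Per the labels' protocols, poly(A) RNA was sequenced as single reads of 50 cycles with a kit that does not mark strand. Treatment came from sample titles, since the treatment tag was the same for all livers of a clock time and differed in 24 libraries. The planned test took FPKM. Whole reads were recovered from the steps of the deposited FPKM for 15040 genes (99.99%, relative tolerance 1e-11); reads of Alb were estimated from the balance of library totals. These reads gave depth and TMM factors (0.772 to 1.24; trim 30% and 5%). limma 3.58.1 in R 4.3.3 was fitted on log2(FPKM / factor + 0.5) with 16 group means and a mean-variance trend, over the 13765 genes that reached 0.5 FPKM in 3 or more libraries, with Benjamini-Hochberg adjustment and a threshold of 0.05, and tested on simulated data. The pseudocount understates changes of low genes. The smallest p the exact permutation allows is 1.25e-05 in mean comparisons; with 3 livers against 3 it could not pass the threshold, so single times rest on limma. Same-numbered livers did not deviate together on the median (360 correlations, median -0.003, from -0.57 to 0.46), although 81 of the correlations exceeded 0.1. No 2 livers of a group were duplicates (chi-square per degree of freedom 9.8 to 272.5). Named genes were Cyp2e1, 8 most and 3 least like it, 25 P450 genes and up to 4 members of 8 lists with the smallest adjusted p; members and lists were chosen with earlier results of these data known. Comparisons of effects at single times, of P450 shares, and fits without 2 or 3 livers were added after seeing the data. Results on some items withheld for evaluation are not reported here.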

Additional observations from a re-analysis of the deposited data

Results flagged for a closer look

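The effect of ethanol on Cyp2e1 differed between the genotype labels by 0.82 (log2, standard error 0.18, adjusted p = 0.00474, limma), with 0.70 under the knockout label and -0.13 in wild type. This result shares its knockout-label controls with the label difference in controls, -0.83, and is not independent of it. At noon alone the difference was 1.58 (adjusted p = 0.0276). That call was lost in 4 of 12 fits without 1 liver (adjusted p up to 0.0985), without the 3 livers that stood apart (0.0581) and without the 2 acute phase livers (0.0791). Within the knockout label the effect differed between clock times, over a span of 2.27 (adjusted p = 0.000872).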

How the results depend on the processing

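Of 319 values recomputed under other settings 305 kept direction and side of the threshold, as did 399 of 432 fits without 1 liver. Cyp2e1 kept its calls without 1 liver for the ethanol effect under the knockout label (0.62 to 0.76), its difference between labels (0.75 to 0.89), the label difference in controls (-0.90 to -0.77) and time of day in knockout-label ethanol livers (1.86 to 2.42). With a replicate block, although same-numbered livers did not deviate together on the median, the first 2 were 0.70 (adjusted p = 0.000146, limma) and 0.82 (adjusted p = 0.00576, limma). No call changed.

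With library totals the differences turned to -0.0065 for ethanol at noon in wild type, and to -0.063 at 6am and -0.14 at 6pm between labels in ethanol livers. Under that scaling 542 genes were called higher and 6759 lower with ethanol under the knockout label (2309 and 2037 with composition scaling), and 193 and 3635 in the difference of effects (508 and 588). Median-ratio scaling turned the mean label difference in ethanol livers to 0.0022. Fitted on the compared groups only, time of day in wild-type controls (0.74, adjusted p = 0.0495), ethanol at midnight in wild type (-0.70, adjusted p = 0.0298) and the label difference in controls at midnight (-0.82, adjusted p = 0.0388) became calls. Time of day in knockout-label controls (1.26, adjusted p = 0.0642) and ethanol at 6am under the knockout label (1.30, adjusted p = 0.0693, with 96 genes called against 1143) were lost. The causes were not tested. Without the 3 livers that stood apart, ethanol at midnight under the knockout label (-0.85) and the label difference in ethanol livers at midnight (-0.97) became calls. The difference of effects at noon was then 1.36 (adjusted p = 0.0581; 0.0791 without the 2 acute phase livers) and at midnight -0.15.

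Without 1 liver each, values that changed call or sign ranged as follows. The label difference in ethanol livers ran from -0.083 to 0.057. Time of day ran from 0.75 to 1.09 in wild-type ethanol and 0.98 to 1.41 in knockout-label control livers. Ethanol at midnight under the knockout label ran from -0.85 to -0.29. The label difference in controls ran from -1.14 to -0.88 at 6am and -1.24 to -0.81 at noon. In ethanol livers it ran from -0.16 to 0.20 at 6am, -0.11 to 0.20 at 6pm and -0.97 to -0.41 at midnight. The difference of effects ran from 1.35 to 1.81 at noon (4 of 12 fits lost the call) and -0.15 to 0.41 at midnight. With 3 livers a group, single-time differences had a standard error of 0.26, which limits what could be detected. A limma voom fit on the recovered reads kept direction and side of the threshold for 32 of 32 values. The count tests edgeR and DESeq2 were not run.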
